A study of Homo sapiens with 3 samples.

Results

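The 48 proteasome genes described here are the features whose symbols start with PSMA, PSMB, PSMC, PSMD, PSME, PSMF or PSMG followed by a number, out of 33538 counted features. Single-cell RNA was counted in 3 libraries, replicates 1 to 3 of 1 group, of alpha cells made from HUES8 (SC-alpha cells), an established human embryonic stem cell line; all 3 carry the same label, with no mutation, drug or second condition. Every comparison therefore sets cells of a library against other cells of the same library. Nothing in the labels says that the replicates were separate differentiations, so the spread between these libraries may be technical. The p-values speak only for these libraries, and they rest on that spread together with variation pooled over all genes. A very small p-value therefore does not rest on the spread of that gene between libraries alone.

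Barcodes were kept if they held 1000 genes or more and if mitochondrial genes gave no more than 20% of their UMIs (counted RNA molecules), which left 1160, 1027 and 1466 cells with medians of 15267, 20721 and 9991.5 UMIs in replicates 1, 2 and 3. No gene of the 48 was used to sort these cells. The cells were sorted by 4 marks: cycling (UMIs of at least 3 of 8 mitotic genes such as MKI67), collagen-positive (at least 10 UMIs of COL1A1, COL1A2 and COL3A1), TPH1-positive (at least 3 UMIs of TPH1, the serotonin synthesis enzyme of enterochromaffin cells) and INS-rich (INS at least 1% of UMIs). Cells with no mark were split by the share of UMIs from GCG, the glucagon gene, into GCG-poor (under 1%), GCG-intermediate (1 to under 10%) and plain GCG-rich (at least 10%). In replicates 1, 2 and 3 there were 24, 17 and 49 cycling cells, 9, 11 and 98 collagen-positive cells, 36, 20 and 107 TPH1-positive cells, 26, 59 and 7 INS-rich cells, 111, 46 and 142 GCG-poor cells, 348, 267 and 584 GCG-intermediate cells, and 609, 611 and 501 plain GCG-rich cells. A cell could carry 2 marks, which 3, 4 and 22 cells did; 3, 3 and 22 of these were both collagen-positive and cycling. No barcode was shared between libraries.

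The proteasome is the protease that degrades ubiquitin-tagged proteins. Its barrel, the 20S core, stacks rings of alpha subunits (PSMA genes), which gate the entry, on rings of beta subunits (PSMB genes), of which PSMB5, PSMB6 and PSMB7 carry the cutting sites; interferon can swap these for the immune subunits PSMB8, PSMB9 and PSMB10. The 19S cap unfolds substrates with its ATPases (PSMC genes) and binds and deubiquitinates them with non-ATPase subunits (PSMD genes), while the PSME genes encode other activators, PSMF1 encodes the regulator PI31, and the PSMG genes with PSMD5, PSMD9 and PSMD10 encode chaperones of its assembly.

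In plain GCG-rich cells the standard core and cap genes lay well above the immune genes in CPM, the UMI count scaled to the summed UMIs of the cells. Since each molecule is counted by its 3′ end, these levels do not scale with transcript length and can be set side by side between genes, apart from how well each 3′ end is captured. The 48 genes together had 29652, 39180 and 16814 UMIs in plain GCG-rich cells, and 46 of the 48 had at least 1 UMI there in every library. The highest level was that of PSMA7, an alpha subunit at chr20:62136735-62143440, with 146, 158 and 214 CPM in replicates 1, 2 and 3. PSMB1, a structural beta subunit, had 166, 168 and 168 CPM, so the order of these genes differed between the libraries. PSMD8, a cap subunit, averaged 160.2 ± 13.3 CPM, PSMB5 147 ± 6.91 CPM and PSMB6 119 ± 13.6 CPM (SD, n = 3 each), and no other member reached 100 CPM.

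The 14 standard core genes spanned 10.9 to 172 CPM with a median of 83.8 CPM, a 15.8-fold range, although the barrel holds their products in equal number. The 17 cap genes spanned 30.9 CPM (PSMD3) to 160.2 CPM (PSMD8) with a median of 54.9 CPM, a 5.18-fold range. The low end of the core was PSMA6, at 10.9 ± 2.32 CPM, which shares 14.1% of its exon bases on its strand with another counted gene. PSMA1 shares 24.7% of its exon bases and had 94.2 ± 5.20 CPM, and the part of such overlaps in the levels was not tested. PSMA6, PSMA1, PSMA2, PSMB9, PSMB10 and PSMD9 all have such an overlap, and 12 members have 32 named pseudogenes, of which 0 were counted as features, so their levels are uncertain. Among the other classes, the inhibitor PSMF1 had 77.8 ± 9.38 CPM, the 11S activator genes PSME1 and PSME2 had 69.9 ± 6.17 and 56.9 ± 3.50 CPM, and PSME4, the PA200 activator, had 42.2 ± 2.79 CPM, against 15.8 ± 0.866 CPM of PSME3. The core chaperones ran from 12.7 ± 0.840 CPM (PSMG3) to 38.3 ± 3.58 CPM (PSMG2), and the cap chaperones from 10.6 CPM (PSMD9) to 20.8 CPM (PSMD10). The germ-cell alpha subunit PSMA8 had 0 UMIs in every population and library, and the thymic subunit PSMB11 had 1 UMI in all, in a plain GCG-rich cell of replicate 3.

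**Figure D1:**
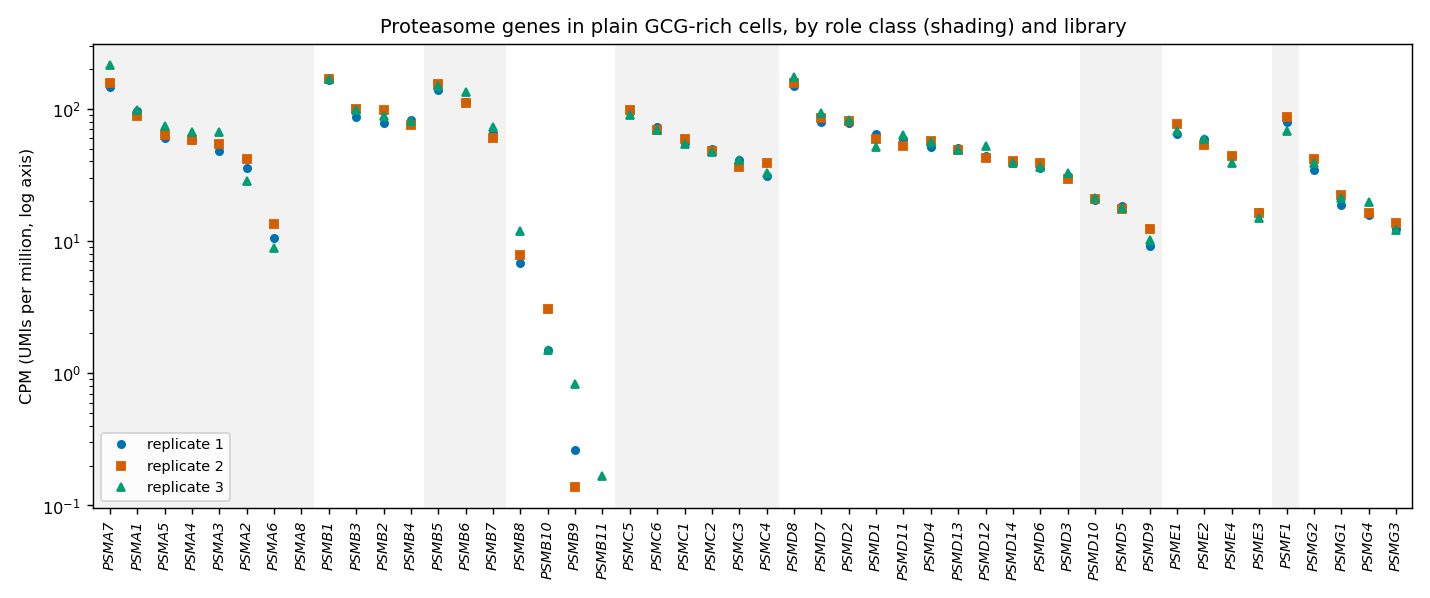
Level of each member in plain GCG-rich cells, in CPM on a log axis, with a point for each of the 3 libraries, sorted by level within each role class (shaded blocks). The points of a gene lie close together for the core and cap genes and spread out for PSMB10 and PSMB9; PSMB11 has 1 point, and values of 0 (all of PSMA8, and PSMB11 in replicates 1 and 2) are not drawn.

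The immune catalytic genes were a small part of each catalytic pair in plain GCG-rich cells. PSMB8, the partner of PSMB5 at chr6:32840717-32844703, had 78, 113 and 71 UMIs in replicates 1, 2 and 3, or 6.86, 7.82 and 11.9 CPM. It made up 4.69%, 4.86% and 7.37% of the UMIs of its pair, and the exact (Clopper-Pearson) 95% bounds were 3.72 and 5.81% in replicate 1, 4.03 and 5.82% in replicate 2, and 5.80 and 9.21% in replicate 3, for counting error only. Replicate 3 was the highest, and its interval overlapped narrowly with that of replicate 2. PSMB10, the partner of PSMB7, had 17, 44 and 9 UMIs, or 2.24%, 4.81% and 2.02% of its pair, highest in replicate 2. PSMB9, the partner of PSMB6, had 3, 2 and 5 UMIs, or 0.234%, 0.126% and 0.617% of its pair.

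In the other populations the shares of the immune genes rest on few UMIs. PSMB8 held 0 of 141, 6 of 108 and 6 of 252 UMIs of its pair in cycling cells, against 78 of 1665, 113 of 2323 and 71 of 963 in plain GCG-rich cells. In replicate 1 a count of 0 allows an exact share of up to 2.58%, which lies under the 3.72% lower bound of plain GCG-rich cells. In replicate 2 the intervals overlapped, and in replicate 3 the upper bound of 5.11% lay under the lower bound of 5.80%. These bounds cover counting error only, not the spread between cells or libraries. The share also depends on PSMB5, which was higher in cycling cells, and the CPM of PSMB8 itself overlapped between the groups. PSMB8 averaged 7.44% ± 1.35 of its pair in collagen-positive cells, 8.33% ± 2.66 in TPH1-positive cells, 5.38% ± 0.131 in GCG-poor cells, 6.36% ± 1.69 in GCG-intermediate cells and 3.78% ± 0.324 in INS-rich cells, against 5.64% ± 1.503 in plain GCG-rich cells (SD, n = 3 each). The highest mean shares of PSMB9 were 1.78% ± 2.19 in collagen-positive and 1.75% ± 2.17 in cycling cells, against 0.325% ± 0.258 in plain GCG-rich cells. These rest on 7 and 6 UMIs over the 3 libraries, of which replicate 2 gave 3 and 4. PSMB10 held 3 of 161, 6 of 70 and 12 of 182 UMIs of its pair in GCG-poor cells, or 1.86%, 8.57% and 6.59%, against 2.24%, 4.81% and 2.02% in plain GCG-rich cells, so the groups overlapped. It averaged 3.95% ± 1.33 in cycling, 2.45% ± 2.57 in collagen-positive, 2.21% ± 2.15 in TPH1-positive, 4.36% ± 1.03 in GCG-intermediate and 1.14% ± 1.27 in INS-rich cells, against 3.02% ± 1.55 in plain GCG-rich cells (SD, n = 3 each). Only PSMB8 and PSMB10 had enough UMIs to be tested, and their tests are given with each population. RNA free in the droplets was not separated from the RNA of the cells themselves, and no cell type known to lack these genes was at hand to measure it.

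**Figure D2:**
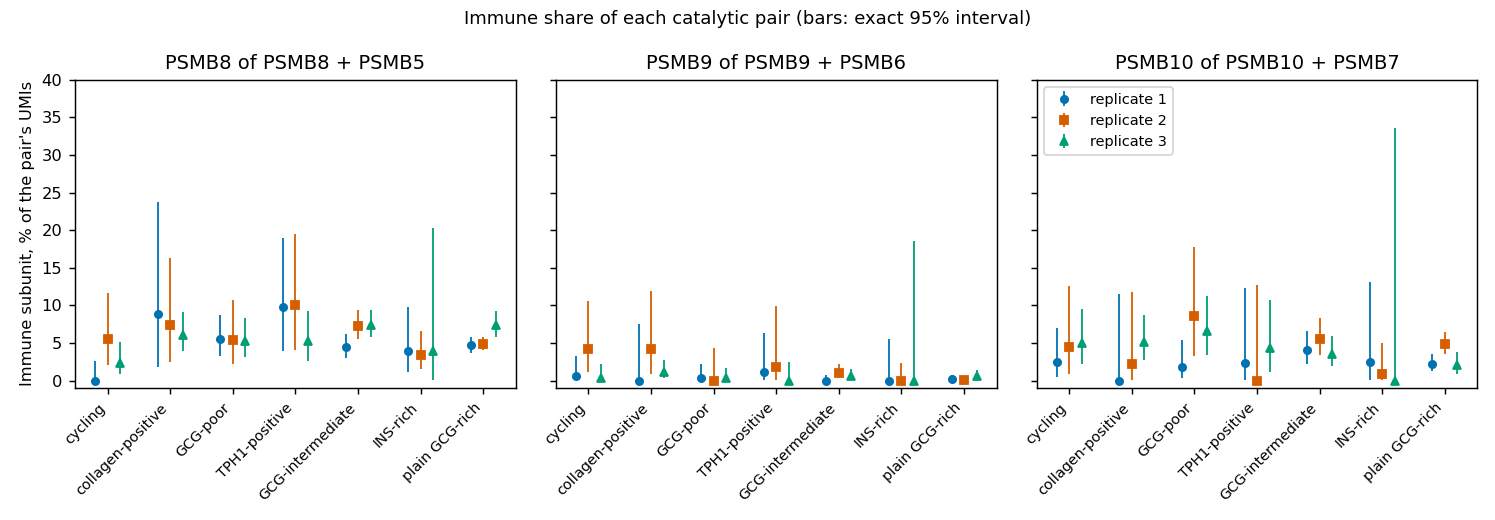
Immune subunit as a percentage of the UMIs of its catalytic pair, in each population (x axis) and library (points), with exact 95% binomial intervals as bars. Plain GCG-rich cells stand rightmost, with the narrowest interval within each library and pair. All points lie at or under 10.0%, and the widest interval, up to 33.6%, belongs to the 7 INS-rich cells of replicate 3.

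The summed level of the 48 genes was highest in cycling and collagen-positive cells. It was 7569, 5262 and 6871 CPM in cycling cells of replicates 1, 2 and 3, and 5779, 6219 and 6018 CPM in collagen-positive cells, against 2608, 2712 and 2810 CPM in plain GCG-rich cells. Within libraries that is 2.90, 1.94 and 2.45 times the plain level in cycling cells and 2.22, 2.29 and 2.14 times in collagen-positive cells. The remaining sums were 4149, 3850 and 4916 CPM in GCG-poor cells, 3586, 4308 and 4003 CPM in TPH1-positive cells, 2995, 3287 and 3213 CPM in GCG-intermediate cells and 2807, 3043 and 3295 CPM in INS-rich cells. GCG takes up part of the UMIs of plain cells, and scaled to the UMIs outside GCG the ratios were smaller. On that scale cycling cells had 7632.5, 5562 and 6883 in replicates 1, 2 and 3. Collagen-positive cells had 5784, 6224 and 6024.5, against 3159, 3310 and 3367 in plain GCG-rich cells. The cell values below are shares of all UMIs. Cell by cell, 24 of 24, 17 of 17 and 47 of 49 cycling cells and 9 of 9, 11 of 11 and 96 of 98 collagen-positive cells lay above the median plain cell of their library. Most cells of the other populations did so too. In replicates 1, 2 and 3 it was 88.9%, 100% and 86.0% of TPH1-positive and 82.9%, 84.8% and 83.8% of GCG-poor cells. It was 68.4%, 82.4% and 69.2% of GCG-intermediate and 61.5%, 71.2% and 71.4% of INS-rich cells. The median cell gave 0.730%, 0.477% and 0.655% of its UMIs to the 48 genes in cycling cells, against 0.260%, 0.265% and 0.277% in plain GCG-rich cells.

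**Figure D3:**
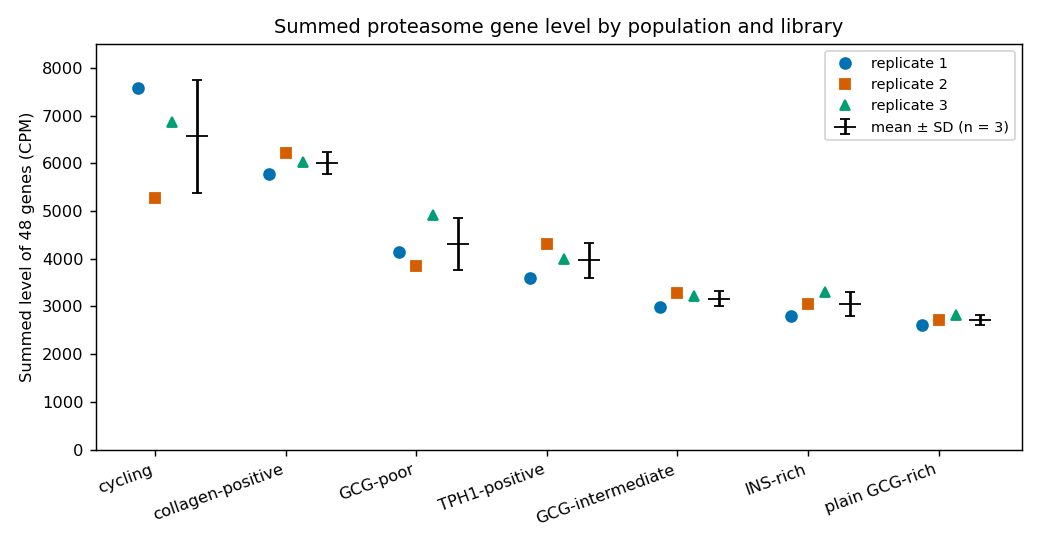
Summed level of the 48 genes in CPM for each population and library (points), with the mean and SD over the 3 libraries in black. All cycling and collagen-positive points, at 5262 CPM or more, lie above every other point; within each library the plain GCG-rich point, at the right, is the lowest, at 2608 to 2810 CPM.

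Other measures moved with these populations, and their part in the results was not tested. The median mitochondrial share was 8.26%, 7.88% and 9.06% in cycling cells and 9.37%, 10.7% and 9.17% in collagen-positive cells, against 14.6%, 14.8% and 14.8% in plain GCG-rich cells. The 6 alpha markers summed to 4673 to 83780 CPM in cycling cells, highest in replicate 2, and to 1321 to 2029 CPM in collagen-positive cells, against 243100 to 255200 CPM in plain GCG-rich cells, and 0 of the 6 were at 0 in any of them. The 7 mesenchyme markers, 0 of which were at 0, summed to 891 to 3344 CPM in cycling cells and 5451 to 8938 CPM in collagen-positive cells, against 1.94 to 7.02 CPM in plain GCG-rich cells. COL1A1, COL1A2 and COL3A1, which set the collagen mark, are 3 of these 7 and gave 3026, 1966 and 1791 CPM of the 8389 CPM in collagen-positive cells of replicate 3, so that sum rests largely on the sorting genes. The 6 neural markers summed to 881 to 3524 CPM in cycling and 98.5 to 358 CPM in collagen-positive cells, against 2.35 to 4.85 CPM in plain GCG-rich cells, with 2 of the 6 at 0 in each of these populations, SOX10 among them. Cycling cells therefore held marker sets of several cell types. Of 8 leukocyte markers, PTPRC, CD3E and TYROBP were at 0 in all 3 of these populations; the list summed to 8.82 to 995 CPM in cycling cells, where LYZ alone gave 939 of the 995 CPM of replicate 2, and to 0 to 3.59 CPM in collagen-positive cells, against 42.3 to 74.4 CPM in plain GCG-rich cells.

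In cycling cells the standard core and cap genes were higher together, while PSME4, PSMF1 and PSMD5 were lower. Of 45 members tested, 32 rose and 3 fell at an adjusted p under 0.05 (edgeR's quasi-likelihood test with Benjamini-Hochberg adjustment over 12145 genes, library as block), against 21.1% of all genes higher and 17.9% lower. The median log2 fold change was 0.87 over the 45 members and -0.09 over all genes tested. By role, 6 of 7 alpha subunits, 4 of 4 structural and 3 of 3 standard catalytic beta subunits, 4 of 6 ATPases, 10 of 11 non-ATPase cap subunits and 3 of 4 core chaperones rose.

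PSMC3, a cap ATPase at chr11:47418769-47426473, showed the largest rise. It had 231, 158 and 229 CPM in cycling cells of replicates 1, 2 and 3, against 40.7, 36.4 and 40.6 CPM in plain GCG-rich cells. The groups did not overlap, and the log2 fold change was 2.06 ± 0.195 (SE, adjusted p = 5.72e-05 by edgeR). The alpha subunit PSMA4, at chr15:78540405-78552419, had 337, 196 and 328 CPM in cycling cells, against 58.0, 57.5 and 66.3 CPM in plain GCG-rich cells, a log2 fold change of 1.90 ± 0.208 (edgeR adjusted p = 0.000143). PSMA7, the highest member in plain cells, had 784, 519 and 770.3 CPM in cycling cells, against 146, 158 and 214 CPM in plain GCG-rich cells, a log2 fold change of 1.69 ± 0.188 (edgeR adjusted p = 0.000160). In all 3 genes replicate 2 was the lowest cycling library and still lay above every plain library. PSMD14, the deubiquitinase of the cap, followed at 1.56 ± 0.196, and PSMC4, another ATPase, at 1.44 ± 0.220.

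The standard catalytic genes rose by unequal amounts in cycling cells. PSMB7, the trypsin-like site, had 277, 163 and 226 CPM in cycling cells, against 65.3, 60.3 and 72.9 CPM in plain GCG-rich cells (log2 fold change 1.41 ± 0.201). PSMB6, the caspase-like site, had 385, 229 and 362 CPM in cycling cells, against 112, 110.2 and 135 CPM in plain GCG-rich cells (1.11 ± 0.195). PSMB5, the chymotrypsin-like site, had 325, 260 and 362 CPM in cycling cells, against 140, 153 and 149 CPM in plain GCG-rich cells (0.78 ± 0.185). The groups did not overlap for any of the 3 genes. On the CPM scale 38 of the 48 members lay above plain cells without overlap in cycling cells. So did 34 in TPH1-positive, 34 in GCG-poor and 21 in GCG-intermediate cells, where few or none passed. Overlap was not counted over all genes, so a lack of it says little about these members.

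The immune and 11S genes gave mixed values in cycling cells, on few UMIs for the immune genes. PSMB10, at chr16:67934502-67937087, had 3, 3 and 8 UMIs in cycling cells, or 6.92, 7.64 and 11.8 CPM, against 1.49, 3.05 and 1.504 CPM in plain GCG-rich cells. It rose by a log2 fold change of 1.88 ± 0.555 (edgeR adjusted p = 0.0252), on 14 UMIs in cycling cells in all, and the call was lost without replicate 1, without replicate 3, with DESeq2 and with no filter on low counts. Against GCG-poor cells, a comparison given below, PSMB10 was not tested. PSMB8 had 0, 15.3 and 8.82 CPM in cycling cells, against 6.86, 7.82 and 11.9 CPM in plain GCG-rich cells, so the groups overlapped and the log2 fold change of -0.53 ± 0.617 did not pass. PSMB9 had too few UMIs to be tested. The interferon-inducible PSME1 had 69.2, 78.9 and 69.1 CPM in cycling cells, against 64.7, 76.7 and 68.2 CPM in plain GCG-rich cells, and its value of -0.26 ± 0.198, which turns to 0.061 with plain library sizes, did not pass. PSME2 had a log2 fold change of 0.54 ± 0.198 (edgeR adjusted p = 0.0558), just outside the threshold, while PSME3, the nuclear PA28-gamma activator, rose by 1.07 ± 0.267.

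The 3 members that fell in cycling cells are a cap chaperone, an activator and the inhibitor. PSMD5 had 2, 4 and 7 UMIs in cycling cells, or 4.61, 10.2 and 10.3 CPM, against 18.5, 17.4 and 17.9 CPM in plain GCG-rich cells (log2 fold change -1.39 ± 0.400, edgeR adjusted p = 0.0231). PSME4, at chr2:53864067-53970840, had 29.98, 30.5 and 23.5 CPM in cycling cells, against 43.8, 43.8 and 38.9 CPM in plain GCG-rich cells (-0.92 ± 0.249, edgeR adjusted p = 0.0181). PSMF1, at chr20:1113263-1189415, had 71.5, 68.7 and 52.9 CPM in cycling cells, against 79.6, 86.2 and 67.7 CPM in plain GCG-rich cells (-0.59 ± 0.202, edgeR adjusted p = 0.0433). The groups overlapped for PSMF1 and not for the other two. All 3 calls were lost without replicate 1, without replicate 3, with DESeq2 and with plain library sizes in place of TMM factors, although the sign held in each of these. The 10 members that did not pass ranged from PSMA6 (-0.58 ± 0.469) to PSMG4 (0.72 ± 0.332), and included the ATPases PSMC2 and PSMC6 and the cap subunit PSMD12 (0.04 ± 0.237).

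**Figure D4:**
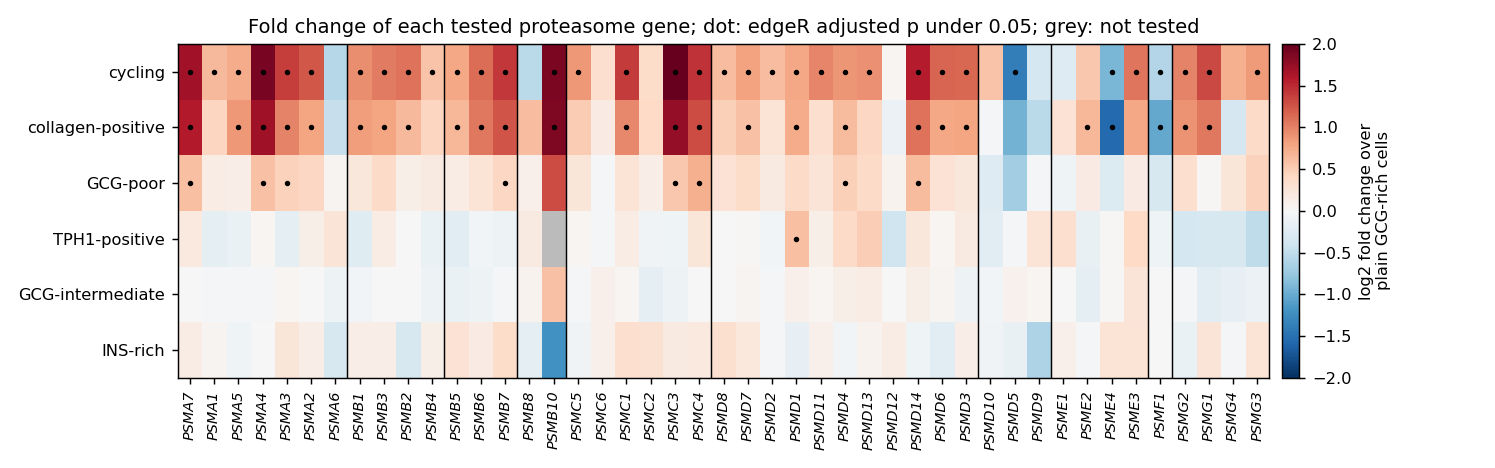
Log2 fold change of each tested member (columns, in role classes split by lines) in 6 populations (rows) over plain GCG-rich cells, from blue (lower) to red (higher), capped at 2; a dot marks an edgeR adjusted p under 0.05 and grey a gene not tested. The cycling row has 35 dots, the collagen-positive row 26, the GCG-poor row 8, the TPH1-positive row 1, and the GCG-intermediate and INS-rich rows 0.

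Leaving out libraries changed how many members passed in cycling cells. The count was 17 higher and 0 lower without replicate 1, 33 and 3 without replicate 2, and 15 and 0 without replicate 3, with medians of 0.73, 0.91 and 0.86. DESeq2 called 24 higher and 0 lower, and cells thinned to 5000 UMIs gave 21 higher and 1 lower. Without the cells that carried a second mark, 26 rose and 2 fell. With plain library sizes 37 rose and 0 fell, beside a median of all genes of 0.24. In each of the 14 alternatives tried, 13 members stayed higher: PSMA2, PSMA3, PSMA4, PSMA7, PSMB2, PSMB3, PSMB6, PSMB7, PSMC1, PSMC3, PSMC4, PSMD14 and PSMG1.

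Collagen-positive cells showed higher core and cap genes as well, and lower PSME4 and PSMF1. The fit used replicates 2 and 3, since replicate 1 had 9 such cells and at least 10 were asked for. Of the cells, 98 came from replicate 3. With so few libraries, the p-values of this fit rest largely on variation pooled over all genes. Of 45 members tested, 24 rose and 2 fell, against 19.2% of all genes higher and 25.2% lower; the median log2 fold change was 0.65 over the members and -0.25 over all genes. By role, 5 of 7 alpha subunits, 3 of 4 structural and 3 of 3 standard catalytic beta subunits, 3 of 6 ATPases, 6 of 11 non-ATPase cap subunits and 2 of 4 core chaperones rose. Without replicate 3 the count was 11 higher and 1 lower, with DESeq2 9 higher and 0 lower, and in thinned cells 10 higher and 2 lower. A fit with at least 5 cells a library, which takes in replicate 1, called 27 higher and 3 lower, and one of cells that were not also cycling called 17 higher and 2 lower.

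PSMC3 had 194.5 and 158 CPM in collagen-positive cells of replicates 2 and 3, against 36.4 and 40.6 CPM in plain GCG-rich cells, a log2 fold change of 1.76 ± 0.230 (edgeR adjusted p = 3.35e-13). PSMA4 had 297 and 242 CPM in collagen-positive cells, against 57.5 and 66.3 CPM in plain GCG-rich cells (1.70 ± 0.218). PSMA7 had 722 and 728 CPM in collagen-positive cells, against 158 and 214 CPM in plain GCG-rich cells (1.58 ± 0.204). In replicate 1, outside the fit, the 9 collagen-positive cells had 144 CPM of PSMC3, 243 CPM of PSMA4 and 683 CPM of PSMA7, also above all plain libraries. PSMC4 rose by 1.30 ± 0.260, PSMB7 by 1.25 ± 0.222, PSMB6 by 1.05 ± 0.212 and PSMB5 by 0.66 ± 0.211. PSMA4, PSMA7, PSMB6, PSMB7 and PSMC3 passed in all 13 alternatives, and no called member changed sign in any.

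PSMB10 rose in collagen-positive cells by 1.86 ± 0.740 (edgeR adjusted p = 0.0292) on 1 and 12 UMIs in replicates 2 and 3, and the call was lost with DESeq2 and with no filter on low counts. It had 5.12 and 10.8 CPM there, against 3.05 and 1.504 CPM in plain GCG-rich cells, and 0 UMIs in the collagen-positive cells of replicate 1. In some other alternatives PSMB10 was not tested, among them the fit against GCG-poor cells and a fit with a library left out. PSMB8 had 25.6 and 19.7 CPM in collagen-positive cells, against 7.82 and 11.9 CPM in plain GCG-rich cells, but its log2 fold change of 0.61 ± 0.485 did not pass. PSME2 had 123 and 114 CPM in collagen-positive cells, against 52.9 and 59.2 CPM in plain GCG-rich cells, and rose by 0.66 ± 0.239 (edgeR adjusted p = 0.0161), a call lost without replicate 3, with DESeq2, in thinned cells, with no filter on low counts, against GCG-poor cells and in cells that were not also cycling. PSME1 had 159 and 92.5 CPM in collagen-positive cells, against 76.7 and 68.2 CPM in plain GCG-rich cells, and its value of 0.30 ± 0.232 did not pass. PSME4 had 20.5 and 17.1 CPM in collagen-positive cells, against 43.8 and 38.9 CPM in plain GCG-rich cells, and fell by 1.55 on the log2 scale (SE 0.383, edgeR adjusted p = 0.000240); DESeq2 and the fit without replicate 3 did not call it. PSMF1 had 40.9 and 48.5 CPM in collagen-positive cells, against 86.2 and 67.7 CPM in plain GCG-rich cells, and fell by 1.03 (SE 0.273, edgeR adjusted p = 0.000698), a call lost with DESeq2 and against GCG-poor cells.

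Both sets of cells hold less GCG than plain GCG-rich cells, so they were also set against GCG-poor cells, a comparison chosen after seeing the data. The median GCG share of cycling cells was 0.112%, 1.44% and 0.0589% in replicates 1, 2 and 3, against 0.230%, 0.188% and 0.140% in GCG-poor cells. In replicate 2 the cycling and GCG-poor cells were thus not matched in GCG. Of 40 members tested, 18 rose and 0 fell in cycling cells over GCG-poor cells (edgeR), against 15.3% and 12.6% of all genes, with a median of 0.62. PSMC3 rose there by 1.51 ± 0.193, PSMA4 by 1.31 ± 0.194 and PSMG1, a core chaperone, by 1.30 ± 0.260. In collagen-positive cells 8 of 42 members rose and 1, PSME4, fell over GCG-poor cells, against 11.7% of all genes higher and 11.7% lower, with a median of 0.59. The comparisons against plain GCG-rich cells share those cells, and most of the doubly marked cells stand in both the cycling and the collagen-positive sums.

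GCG-poor cells with no mark showed a smaller rise in 8 genes. Of 45 members tested, 8 rose and 0 fell (edgeR), or 17.8% of those tested, against 9.4% of all genes higher and 5.72% lower, with a median of 0.24 over the members and -0.01 over all genes. PSMC4 had 72.005, 82.1 and 67.5 CPM in GCG-poor cells, against 30.8, 38.8 and 32.6 CPM in plain GCG-rich cells, without overlap (log2 fold change 0.72 ± 0.134, edgeR adjusted p = 0.00266). PSMD14 followed at 0.63 ± 0.135, PSMA7 at 0.60 ± 0.107, PSMA4 at 0.58 ± 0.135, PSMC3 at 0.53 ± 0.142, PSMD4, a ubiquitin receptor of the cap, at 0.47 ± 0.123, PSMA3 at 0.46 ± 0.127 and PSMB7 at 0.41 ± 0.117. PSMB5 (0.15 ± 0.116), PSMB6 (0.27 ± 0.137), PSMB8 (0.10 ± 0.279), PSMB10 (1.31 ± 0.479), PSME1 (-0.09 ± 0.121) and PSME2 (0.16 ± 0.123) did not pass.

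The calls in GCG-poor cells were few and depended on the libraries and the fit. The count was 4 higher without replicate 1, 8 without replicate 2 and 3 without replicate 3, 2 with DESeq2, 1 in thinned cells, and 4 higher with 1 lower without the library block; none of the 8 genes passed in all 13 alternatives. With plain library sizes 35 rose, beside a median of all genes of 0.41. When marked cells were kept in, 27 rose and 3 fell, beside 2886 higher and 2038 lower of all 13268 genes tested. The cells added there are marked cells with GCG under 1%, among them cycling and collagen-positive cells, so this count partly repeats their results. GCG-poor cells also held the 7 mesenchyme markers at 36.0 to 210.2 CPM, against 1.94 to 7.02 CPM in plain GCG-rich cells, and the 6 neural markers at 103 to 823 CPM, against 2.35 to 4.85 CPM. The 4 delta cell markers, of which SST gave nearly all, summed to 3536, 31430 and 1286 CPM in GCG-poor cells, against 1230, 2169 and 1579 CPM in plain GCG-rich cells, higher in replicates 1 and 2 and lower in replicate 3. In GCG-poor cells 0 of these markers were at 0, and their part in the result was not tested.

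Along the GCG share, the summed level of unmarked cells was highest in every library in the cells with the least GCG; this trend was not tested. With GCG under 1%, 1 to 5%, 5 to 10%, 10 to 20% and at least 20% of UMIs, the 48 genes summed to 4149, 3145, 2945, 2711 and 2384 CPM in replicate 1, to 3850, 3616, 3213, 2812 and 2501 CPM in replicate 2, and to 4916, 3343, 3163, 2897 and 2549 CPM in replicate 3. GCG itself takes up part of the UMIs, so the same sums were also scaled to the UMIs outside GCG. On that scale they were 4160, 3253, 3198, 3174 and 3122 in replicate 1, 3858, 3740.0, 3492, 3327 and 3270.4 in replicate 2, and 4925, 3457, 3428, 3362 and 3384 in replicate 3. On this scale the 4 upper bins lay close together in replicates 1 and 3 and declined in replicate 2, and the lowest bin stood above them in every library.

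**Figure D5:**
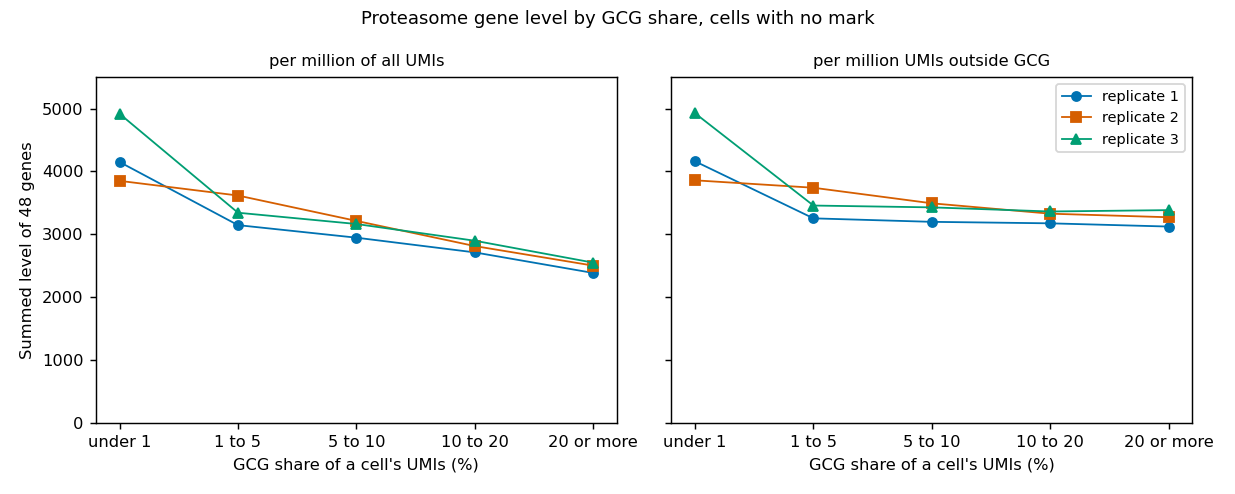
Summed level of the 48 genes in cells with no mark (y axis, scaled to all UMIs at the left and to the UMIs outside GCG at the right) by the GCG share of the cell in percent (x axis), with a line for each library. The decline over the 4 upper bins at the left, down to 2384 to 2549 CPM, is smaller at the right, where these bins lie between 3122 and 3740.0 and decline most in replicate 2.

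Few or none of the proteasome genes passed the test in TPH1-positive, GCG-intermediate and INS-rich cells. In TPH1-positive cells 1 of 44 members rose and 0 fell (edgeR), against 7.76% of all genes higher and 8.83% lower, with a median of -0.01 over the members and over all genes. That gene was PSMD1, the scaffold of the cap, with 119, 129 and 128 CPM in TPH1-positive cells, against 64.5, 58.8 and 51.1 CPM in plain GCG-rich cells (0.60 ± 0.141, adjusted p = 0.0032 by edgeR); the call was lost without replicate 3, with DESeq2 and against GCG-poor cells. The summed level of the 48 genes was higher on the CPM scale in every library, and with plain library sizes 28 members passed as higher, but that scaling also put the median of all genes at 0.52, and the median member at 0.52. The values of PSMB5 (-0.23 ± 0.134), PSMB6 (-0.06 ± 0.130) and PSMB7 (-0.10 ± 0.144) therefore turn positive with plain library sizes, as does that of PSME2 (-0.15 ± 0.157). PSME1 had 133, 123 and 123 CPM in TPH1-positive cells, against 64.7, 76.7 and 68.2 CPM in plain GCG-rich cells, and its value of 0.34 ± 0.138 did not pass (edgeR adjusted p = 0.0996). PSMB8 (0.19 ± 0.374) did not pass, and PSMB9 and PSMB10 had too few UMIs.

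In GCG-intermediate cells 0 of 45 members passed (edgeR; 4 at an unadjusted p under 0.05, 0 with DESeq2), against 0.692% of all genes higher and 0.582% lower. The members ranged from -0.23 to 0.59, with a median of -0.00 that lay at 0.00 over all genes. The largest value was that of PSMB10, with 3.12, 5.03 and 2.51 CPM in GCG-intermediate cells, against 1.49, 3.05 and 1.504 CPM in plain GCG-rich cells, and overlapping groups (0.59 ± 0.304, edgeR adjusted p = 0.564). PSMB5 (-0.13 ± 0.067), PSMB6 (-0.11 ± 0.068), PSMB7 (-0.02 ± 0.078), PSMB8 (0.08 ± 0.166), PSME1 (0.01 ± 0.072) and PSME2 (-0.19 ± 0.077) did not pass. With plain library sizes PSMB5, PSMB6, PSMB7 and PSME2 turned positive and 31 members passed as higher, beside a median of all genes of 0.24.

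In INS-rich cells 0 of 45 members passed (edgeR; 5 at an unadjusted p under 0.05, 0 with DESeq2), against 1.01% of all genes higher and 0.462% lower. The fit used replicates 1 and 2, since replicate 3 had 7 such cells. PSMB5 had 188 and 183 CPM in INS-rich cells of replicates 1 and 2, against 140 and 153 CPM in plain GCG-rich cells, without overlap, but it did not pass after adjustment (0.28 ± 0.100, edgeR adjusted p = 0.170). PSMB7 (0.37 ± 0.140) and PSMB6 (0.16 ± 0.113) also lay above 0, PSMB8 (-0.18 ± 0.490) and PSMB10 (-1.21 ± 0.974, on 1 UMI in each library) below it, and none passed. PSME1 (0.10 ± 0.139) and PSME2 (-0.02 ± 0.161) did not pass, and PSMB9 had 0 UMIs in INS-rich cells of all 3 libraries. The delta markers were at 5637 and 9367 CPM in these cells, against 1230 and 2169 CPM in plain GCG-rich cells, and their part was not tested.

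Genes that work with the proteasome without being part of the list moved in both directions. Of 28 such partner genes, 9 rose and 4 fell in cycling cells, with a median of 0.16 (edgeR). That is 32.1% higher and 14.3% lower, against 21.1% and 17.9% of all genes. UFD1, a cofactor of the VCP unfoldase, rose by 1.58 ± 0.197, ADRM1, a ubiquitin receptor of the cap, by 1.44 ± 0.261 and AKIRIN2, which carries proteasomes into the nucleus, by 1.43 ± 0.329. ECPAS, which binds the assembled 26S complex, had 16.4 ± 5.87 CPM in cycling cells, against 48.6 ± 4.57 CPM in plain GCG-rich cells (SD, n = 3 each), and fell by 1.89 (SE 0.308). In collagen-positive cells 8 of 28 rose and 5 fell, or 28.6% and 17.9%, against 19.2% and 25.2% of all genes, with a median of 0.00. DDI2, the protease that activates the NFE2L1 factor, fell there by 2.39 (SE 0.534) and ECPAS by 1.69 (SE 0.376), while AKIRIN2 rose by 1.73 ± 0.352 and UFD1 by 1.43 ± 0.268. The transcription factor NFE2L1, which drives proteasome genes when the proteasome is inhibited, had 33.6 ± 6.51 CPM in cycling cells, against 45.7 ± 7.03 CPM in plain GCG-rich cells (-0.76 ± 0.242, edgeR adjusted p = 0.0343).

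In GCG-poor cells 3 of 28 partner genes rose and 1 fell (edgeR), or 10.7% and 3.57%, near the 9.4% and 5.72% of all genes: ADRM1 by 0.75 ± 0.159, UFD1 by 0.67 ± 0.143 and POMP, the maturation chaperone of the core, by 0.54 ± 0.109 rose, and UBQLN2, a shuttle of ubiquitinated proteins, fell by 0.61 (SE 0.159). In TPH1-positive cells 0 rose and 3 fell (10.7%, near the 8.83% of all genes), among them RPS27A, which encodes ubiquitin fused to a ribosomal protein, by 0.64 (SE 0.093) and SEM1, a small cap subunit, by 0.55 (SE 0.129). These falls are relative to the TMM scale: on the CPM scale SEM1 averaged 192 ± 19.4 CPM in TPH1-positive cells and 192 ± 22.9 CPM in plain GCG-rich cells, and with plain library sizes neither call held. In GCG-intermediate and INS-rich cells 0 of 28 passed (edgeR; 0 and 1 at an unadjusted p under 0.05).

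Among 16 interferon-inducible antigen processing genes, more fell than rose in cycling and collagen-positive cells. In cycling cells 1 of 13 tested rose and 6 fell (edgeR), or 7.69% and 46.2%, against 21.1% and 17.9% of all genes, with a median of -0.86. In collagen-positive cells 2 of 15 rose and 8 fell, or 13.3% and 53.3%, against 19.2% and 25.2% of all genes, with a median of -0.75. HLA-E, a class I antigen, had 24.3 ± 8.50 CPM in cycling cells, against 73.5 ± 12.7 CPM in plain GCG-rich cells (SD, n = 3 each). The genes that rose were IFIT1 in both sets and TAP1, the peptide transporter, in collagen-positive cells, at 6.17 ± 2.30 CPM of IFIT1 in cycling cells against 1.58 ± 0.515 CPM in plain GCG-rich cells. Cycling cells held 433626, 392851 and 680231 UMIs of all genes in replicates 1, 2 and 3, so IFIT1 rests on few UMIs there. GCG-poor cells had 1 of 14 higher and 1 lower (edgeR), or 7.14% each, against 9.4% and 5.72% of all genes. TPH1-positive cells had 1 of 14 higher and 2 lower, or 7.14% and 14.3%, against 7.76% and 8.83%. GCG-intermediate cells had 1 of 16 higher and 2 lower, or 6.25% and 12.5%, against 0.692% and 0.582%. INS-rich cells had 0 of 15 called, against 1.01% and 0.462%. At an unadjusted edgeR p under 0.05 there were 2, 5, 6 and 2 genes in these populations, in this order. HLA-E, IFIT1 and TAP1 were named after their values were seen.

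The promoters of 42 of the 48 members were matched by symbol in RefSeq (GRCh38.p14, 250 bases before and 50 after the start), and 4 are printed as examples of members that carry motif letters. Motifs were searched on both strands: the core of the antioxidant response element (TGACNNNGC), bound by NFE2 factors, the CCAAT box (CCAAT), the core of the interferon-stimulated response element (GAAA, any 2 bases, GAAA) and the core of the gamma-activated site (TTCNNNGAA). Capitals mark these motifs. PSMB3, at chr17:38752491-38752790 on the plus strand, is shown for a core gene with 3 motif matches, PSMC3, at chr11:47426390-47426689 on the minus strand, for the member with the largest rise in cycling cells, and PSMB10, at chr16:67936801-67937100 on the minus strand, and PSME2, at chr14:24146561-24146860 on the minus strand, for interferon genes.
PSMB3: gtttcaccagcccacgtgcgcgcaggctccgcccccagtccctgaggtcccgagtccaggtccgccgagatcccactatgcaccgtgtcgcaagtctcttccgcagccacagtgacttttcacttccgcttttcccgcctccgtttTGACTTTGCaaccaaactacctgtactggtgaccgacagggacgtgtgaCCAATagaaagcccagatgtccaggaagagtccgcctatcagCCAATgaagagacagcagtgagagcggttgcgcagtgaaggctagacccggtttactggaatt
PSMC3: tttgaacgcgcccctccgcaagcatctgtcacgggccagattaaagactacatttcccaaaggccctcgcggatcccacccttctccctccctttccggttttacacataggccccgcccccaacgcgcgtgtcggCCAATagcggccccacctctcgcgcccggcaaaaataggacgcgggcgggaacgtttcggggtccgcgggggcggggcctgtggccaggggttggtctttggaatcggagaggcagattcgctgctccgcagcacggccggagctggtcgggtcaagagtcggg
PSMB10: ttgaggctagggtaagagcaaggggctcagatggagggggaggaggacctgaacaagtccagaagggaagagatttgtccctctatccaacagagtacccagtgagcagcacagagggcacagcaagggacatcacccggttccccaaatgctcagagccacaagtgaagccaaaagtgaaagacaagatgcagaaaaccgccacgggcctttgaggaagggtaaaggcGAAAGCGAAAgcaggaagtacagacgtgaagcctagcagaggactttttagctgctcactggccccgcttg
PSME2: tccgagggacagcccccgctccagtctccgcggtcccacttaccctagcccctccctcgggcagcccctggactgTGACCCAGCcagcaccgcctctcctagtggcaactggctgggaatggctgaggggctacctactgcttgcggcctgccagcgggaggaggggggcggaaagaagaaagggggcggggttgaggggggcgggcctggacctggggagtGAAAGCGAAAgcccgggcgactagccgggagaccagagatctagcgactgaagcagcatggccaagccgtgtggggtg
In PSMB3 the capitals are 1 antioxidant core, which starts 104 bases before the start site, and 2 CCAAT boxes; in PSMC3 they are 1 CCAAT box. In PSMB10 and PSME2 the run GAAAGCGAAA is the interferon core, which starts 21 and 28 bases before the start site, and PSME2 also holds an antioxidant core.

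The interferon core was in 6 of the 42 promoters (14.3%), those of PSMA4, PSMB4, PSMB10, PSME1, PSME2 and PSMG4, and in 3.57% of 35116 promoters of the same length. For each member only the first listed window was searched, so any other start site was left out. The shares of all promoters take every listed window, so the 2 kinds of share are not counted alike. The immune genes PSMB8 and PSMB9 were matched but hold neither the interferon core nor the gamma-activated core in the window searched. PSMB9 holds an antioxidant core and a CCAAT box, and PSMB8 holds none of the 4 motifs in this window. The antioxidant core was in 13 (31.0%, against 13.3% of all), the CCAAT box in 19 (45.2%, against 34.6%) and the gamma-activated core in 5 (11.9%, against 7.66%). Of the 6 members with the interferon core, PSMA4, PSMB4 and PSMB10 rose in cycling cells, and PSME1, PSME2 and PSMG4 did not pass. Of all members tested 71.1% rose there, and of all genes 21.1%, so these 3 calls do not set the motif carriers apart. The PSMB4 call held in 6 of 14 alternatives. The 3 members that fell in cycling cells were matched too: PSMD5 and PSME4 hold an antioxidant core, and PSMF1 holds none of the 4 motifs in this window. A match is a stretch of letters and not a site shown to be bound.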

How the data were processed

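The authors deposited, for each of 3 libraries, a matrix of counts of UMIs per gene and cell barcode, made with Cell Ranger 4.0.0 against GRCh38, per the submitters' processing notes; for the gene annotation, a version is not given in the sources used here. Deposited counts are whole numbers with no normalization, and 0 columns were left unused. Members and gene lists were chosen with earlier results of these data known. Kept barcodes had 1000 genes or more and no more than 20% of UMIs from mitochondrial genes; Scrublet doublets stayed in and were left out in an alternative. Counts were summed per library and population with at least 10 cells, and each population was compared with plain GCG-rich cells of the same libraries by edgeR 4.0.16 (TMM, filterByExpr, quasi-likelihood test, Benjamini-Hochberg over all genes, threshold 0.05) in R 4.3.3. The library was a block, because each pair of sums was taken within 1 library. DESeq2 1.42.0 was an alternative. Standard errors were derived from the fold change and the square root of F. The scripts were tested on simulated data. CPM are scaled to the UMIs of the summed cells; SD is over libraries. Gene positions are from GENCODE v29 on GRCh38. Named in each comparison were PSMB5 to PSMB10, PSME1 and PSME2, up to 6 called members a direction and up to 4 called partner genes by size of the log2 fold change, the highest and lowest member of each role class, and members not detected; any other gene was named after its values were seen. Values of some single genes of these lists are not reported here. Python 3.11.15, scanpy 1.11.5, scipy 1.17.1 and matplotlib 3.10.9 were used.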

Additional observations from a re-analysis of the deposited data

Results flagged for a closer look

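Barcodes over the mitochondrial limit enter no comparison, yet they held proteasome UMIs. The 48 genes summed to 2005, 2399 and 2587 CPM in these barcodes of replicates 1, 2 and 3, against 2970, 2959 and 3547 CPM in the kept barcodes. No control sample was at hand, so what drew attention was a level above the limit that a count of 0 allows, in barcodes that were not analysed.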

How the results depend on the processing

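No called member changed sign under any alternative tried. Of the 45 members tested in INS-rich cells 0 passed under every alternative run. Comparisons against GCG-poor cells and those with at least 5 cells a library were added after seeing the data. Not run, for want of libraries with enough cells, were a stricter mark for INS-rich and collagen-positive cells and collagen-positive cells with 1 mark at the usual minimum. For INS-rich and collagen-positive cells, leaving out a library left 1 pair, fitted jointly with the other populations, so the lone sample is assumed to vary like the other groups. Where a count moved, the cause was not tested.

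For proteasome members, the count in cycling cells (35) was 18 against GCG-poor cells, 22 thinned and 15 to 36 with a library left out. In collagen-positive cells (26) it was 9 with DESeq2, 9 against GCG-poor cells, 12 thinned and 12 to 33 with a library left out. In GCG-poor cells (8) it was 30 with marked cells kept in, 2 with DESeq2, 35 with plain library sizes, 5 without the replicate block, 1 thinned and 3 to 8 with a library left out. In TPH1-positive cells (1) it was 0 with DESeq2, 0 against GCG-poor cells, 2 without doublets, 28 with plain library sizes, 2 thinned and 0 to 4 with a library left out. In GCG-intermediate cells (0) it was 31 with plain library sizes and 0 to 1 with a library left out. The replicate block, which pairs sums of the same library, moved no other count of members by over 1.5 times.

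Over all genes, the count in cycling cells (4740.0) was 2306 against GCG-poor cells, 2839 thinned and 2411 to 5992 with a library left out. In collagen-positive cells (5564) it was 2292 with DESeq2, 2178 against GCG-poor cells, 3126 thinned and 2567 to 5823 with a library left out. In GCG-poor cells (1862) it was 4924 with marked cells kept in, 1050.0 with DESeq2, 4452 with plain library sizes, 2835 with no filter, 740.0 thinned and 1171 to 1694 with a library left out. In TPH1-positive cells (1995) it was 1050.0 with DESeq2, 664 against GCG-poor cells, 5190.0 with plain library sizes, 1280.0 with a stricter mark, 1192 thinned and 1221 to 2205 with a library left out. In GCG-intermediate cells (162) it was 27 with DESeq2, 330.0 with at least 2000 genes, 0 in the joint fit, 5085 with plain library sizes, 1 without the replicate block, 49 thinned and 67 to 341 with a library left out. In INS-rich cells (191) it was 28 with DESeq2, 124 with at least 5 cells, 2 in the joint fit, 93 with plain library sizes, 27 without the replicate block, 25 thinned and 0 to 2 with a library left out. The summed level with GCG under 1% was 1.74 times that with GCG at least 20%, and 1.32 times scaled to UMIs outside GCG.

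The log2 fold changes of named genes that reversed were of genes that had not passed. With plain library sizes in TPH1-positive cells PSMB5 turned to 0.30, PSMB6 to 0.47, PSMB7 to 0.43 and PSME2 to 0.38; in GCG-intermediate cells PSMB5 to 0.11, PSMB6 to 0.13, PSMB7 to 0.22 and PSME2 to 0.053; PSME1 to 0.061 in cycling and 0.32 in GCG-poor cells, and PSME2 to 0.018 in INS-rich cells. Thinning gave PSMB6 0.16 in TPH1-positive, PSME1 0.15 in cycling, PSMB8 -0.25 in collagen-positive and -0.093 in GCG-intermediate cells. With a library left out, INS-rich cells ranged from -0.60 to 0.088 for PSMB8, -1.72 to 0.52 for PSMB10, -0.0091 to 0.26 for PSME1 and -0.75 to 0.20 for PSME2. TPH1-positive cells ranged from -0.15 to 0.049 for PSMB6 and -0.11 to 0.70 for PSMB8. GCG-intermediate cells ranged from -0.20 to 0.12 for PSMB7, -0.24 to 0.26 for PSMB8 and -0.0025 to 0.015 for PSME1, and GCG-poor cells from -0.13 to 0.33 for PSMB8. PSME1 in GCG-intermediate cells was -0.0043 without doublets and -0.0048 with no filter, PSME1 in GCG-poor cells 0.060 with marked cells kept in, PSME2 in cycling cells -0.026 with 1 mark only, and PSME2 in INS-rich cells 0.058 with at least 5 cells. Immune genes rest on few UMIs, which limits what their tests can show.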
